A study of Mus musculus with 6 samples.

Results

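The insulin-like growth factor (IGF) genes described here are 10 mouse genes, chosen by name from the 46078 genes listed in the count table: the ligands *Igf1* and *Igf2*, the receptors *Igf1r* and *Igf2r*, the secreted binding proteins *Igfbp2*, *Igfbp3*, *Igfbp4* and *Igfbp5*, the RNA-binding protein gene *Igf2bp2*, and the noncoding RNA *H19*, which lies beside *Igf2*. The rule uses gene names and no measured value, but these genes and all further gene lists were chosen with earlier results of these data known. The question was how these transcripts differ between differentiating muscle cells with and without a functional *Hnrnpa2b1* gene, which encodes a nuclear RNA-binding protein. Total RNA was sequenced from C2C12 cells, an immortalized mouse myoblast line that exits the cell cycle and fuses into myotubes in medium low in serum. The KO group (genotype hnrnpa2b1 KO, 3 libraries, KO1 to KO3) came from cells treated with Cas9 and a guide RNA against *Hnrnpa2b1*, and the WT group (3 libraries, WT1 to WT3) from wild-type cells of the same line. Both were harvested after 2 days of serum withdrawal in medium with ITS, a mixture of insulin, transferrin and selenium, so insulin was present in every culture. The study's general differentiation medium keeps some horse serum.

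Both genotypes were grown from clones picked after puromycin selection. Which clone gave each library is not stated, so the p-values below measure the spread between these libraries, and differences between clones cannot be told apart from differences between genotypes. The libraries hold myoblasts and myotubes together, and in such bulk RNA fewer cells of a type and less RNA per cell cannot be told apart.

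IGF1 and IGF2 are secreted peptides that bind the IGF1 receptor, a tyrosine kinase that signals through PI3K-AKT and MAPK, while the IGF2 receptor takes up IGF2 and delivers it to lysosomes. The IGF binding proteins hold most of the extracellular ligand and control its access to the receptor. In muscle the IGF system is known for promoting both proliferation and differentiation of myoblasts, and *Igf2* and *H19* are reciprocally imprinted neighbours that are both switched on as myoblasts differentiate. *Igf2bp2* encodes a cytoplasmic protein that binds mRNAs, *Igf2* mRNA among them.

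*Igf2* and *H19* each carry a microRNA gene inside their transcription unit, and these are shown because both host genes fell in KO cells. The *H19* hairpin lies at chr7:142577064-142577147 on the minus strand, within an exon of 3 of the 7 annotated *H19* transcripts. In the hairpin the capitals mark the 5p and 3p mature strands, and in the mature strands they mark the seed, the bases that pair with targets (RefSeq, GRCm38.p6):
microRNA 675 hairpin: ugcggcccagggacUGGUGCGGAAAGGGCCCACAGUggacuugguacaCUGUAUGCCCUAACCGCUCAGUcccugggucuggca
mmu-miR-675-5p: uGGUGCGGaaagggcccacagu
mmu-miR-675-3p: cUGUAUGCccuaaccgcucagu
mmu-miR-483-5p: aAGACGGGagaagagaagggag
mmu-miR-483-3p: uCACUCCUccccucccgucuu
The *Igf2* hairpin, at chr7:142654924-142654996 on the minus strand, lies in an exon of 0 of the 9 annotated *Igf2* transcripts. Each of the 4 seeds occurs in only 1 of the 1738 mature mouse miRNAs in the RefSeq table, so none of the 4 shares its seed with another miRNA there. The hairpin genes *Mir675* and *Mir483* were listed at 0 counts in all 6 libraries. Mature miRNAs were not measured, and the values below for *H19* and *Igf2* are those of the long transcripts.

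The libraries held 33605258 to 40558740 counts. Values are given as CPM, the counts scaled to the same total in every library and for library composition (TMM), and as TPM, which also divide by transcript length, wherever levels of different genes are set side by side. A gene was called changed at an adjusted p under 0.05 in edgeR's quasi-likelihood test over the 14828 genes tested, of which 22.7% were called. *Hnrnpa2b1* itself stood at 159, 195 and 249 CPM in the KO libraries and at 225, 229 and 252 in the WT libraries, a log2 fold change of −0.23 ± 0.18 (SE) with an edgeR adjusted p of 0.381. A transcript with small deletions at a Cas9 cut can still be counted, so this level does not check the genotype labels. Muscle markers were abundant throughout: the summed CPM of 20 myoblast and myotube genes ran from 15302 to 34187 in KO and from 26650 to 34429 in WT. Of these 20 genes, 2 rose (*Myod1* and *Cdh15*) and 4 fell (*Myf5*, *Myl1*, *Atp2a1* and *Mybpc1*). The summed CPM of 7 fibroblast and fibroadipogenic genes was 5569, 6086 and 8820 in KO and 3494, 4567 and 4499 in WT, without overlap, and most of it was *Col3a1*, which was not called. Of the 6 tested, 3 rose (*Ly6a*, *Pi16* and *Pdgfra*, the first and last of them usual markers of fibroadipogenic cells), and the other 3 (*Col1a1*, *Col3a1* and *Dcn*) also had fold changes above 0 without being called. *Thy1* was at or near 0 in all 6 libraries. Adipocyte markers such as *Adipoq* and hepatocyte markers such as *Alb* were at or near 0, and endothelial and immune lists summed to at most 4.11 CPM. The neural list summed to 12.6 to 29.3 CPM in KO and 2.83 to 4.26 in WT, most of it *Tubb3*. KO1 stood apart within its group: its log2 CPM correlated with KO2 and KO3 at r of 0.971 and 0.973 across genes, against 0.983 between those 2 libraries and at least 0.99 among the WT libraries.

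Across the 10 IGF genes, *Igf1* rose in KO cells and *Igf2*, *H19*, *Igf1r* and *Igf2bp2* fell. All 10 passed the filter on low counts, so 5 of 10 were called, 1 higher and 4 lower, where 12.1% of all genes were called higher and 10.6% lower. For 6 of the 10 the libraries of the genotypes did not overlap (5 with KO below, *Igfbp2* among them), against 44.3% of all genes tested, 22.7% with KO above and 21.6% with KO below. The median log2 fold change of the 10 was −0.44, beside 0.03 over all tested genes. The binding proteins *Igfbp3*, *Igfbp4* and *Igfbp5* and the receptor *Igf2r* overlapped between genotypes.

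**Figure D1:**
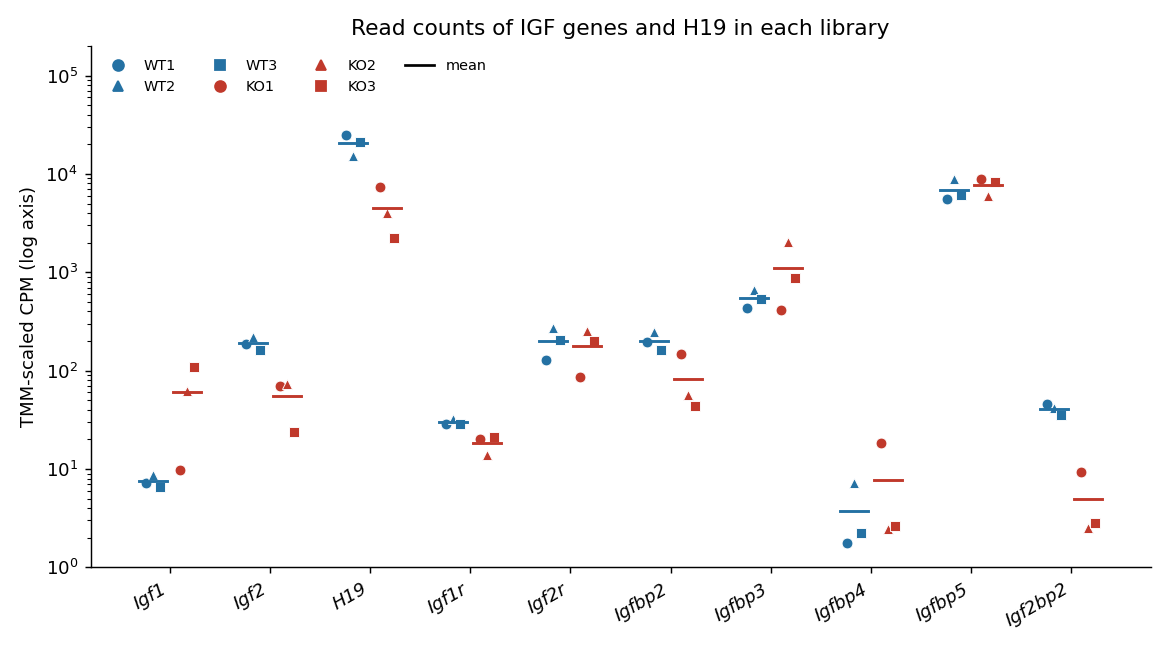
TMM-scaled CPM (log axis) of the 10 genes in each library, blue for WT and red for KO, with circles, triangles and squares for libraries 1, 2 and 3 and a bar at each group's mean. *Igf1* is the only one of the 10 with every KO library above every WT library, and *Igf2*, *H19*, *Igf1r*, *Igfbp2* and *Igf2bp2* have every KO library below.

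Of the ligands, *Igf2* (ENSMUSG00000048583, chr7:142650766-142666816, minus strand) was at 188, 218 and 162 CPM in WT1, WT2 and WT3 and at 70.2, 73.5 and 23.9 CPM in KO1, KO2 and KO3. Every KO library lay below the lowest WT library, and KO3 was the lowest by a wide margin. The log2 fold change was −1.76 ± 0.38 (SE; 95% interval −2.65 to −0.87), 3.39-fold lower, with an edgeR adjusted p of 0.0175. In TPM the fall was from 35.4 ± 6.92 (SD, n = 3) to 9.65 ± 4.88 (SD, n = 3). On the log2(TPM + 1) scale the difference was −1.89 ± 0.36 (SE), with a limma adjusted p of 0.00942. Without WT1 neither measure was called, at an adjusted p of 0.0649 in edgeR and 0.0555 in limma.

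*Igf1* (ENSMUSG00000020053, chr10:87858265-87937042, plus strand) moved the other way. It was scarce in WT cells, at 7.26, 8.69 and 6.63 CPM. The KO libraries were at 9.88, 62.2 and 109 CPM. All 3 lay above WT, but KO1 only slightly, 0.39 log2 units over the WT mean against 3.05 for KO2 and 3.86 for KO3. The edgeR estimate was a log2 fold change of 3.01 ± 0.72 (SE; 95% interval 1.35 to 4.66), 8.03-fold higher, with an adjusted p of 0.0235. This call was lost when KO3 (edgeR adjusted p = 0.0638), WT1 (0.0967), WT2 (0.0628) or WT3 (0.0916) was left out. The log2 fold change was 2.27 without KO3 and 3.5 without KO1. In TPM the libraries overlapped, KO1 at 1.15 lying below WT2 at 1.4, and limma's adjusted p was 0.0798 for a difference of 1.65 on the log2(TPM + 1) scale. Without KO1 that difference was 2.46 with a limma adjusted p of 0.000349, and without KO3 it was 1.01 (0.19).

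The balance between the ligands shifted from library to library within the KO group. *Igf2* exceeded *Igf1* 36.2-fold, 30-fold and 30-fold in TPM in WT1, WT2 and WT3. For KO1, KO2 and KO3 the ratio was 10.5, 1.77 and 0.265, so *Igf1* was the more abundant ligand transcript in KO3. All 3 KO ratios were below the lowest WT ratio, and they differed from each other far more than the WT ratios did. The sum of both ligands was 13.1, 20.2 and 19.2 TPM in KO against 36.8, 43.5 and 29.2 TPM in WT, again without overlap. With 3 libraries against 3, an exact two-sided permutation test of any single value cannot go below 0.1, which is the p of every comparison without overlap here.

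*H19* (ENSMUSG00000000031, chr7:142575529-142578143, minus strand) was, in TPM, the most abundant of the 10 transcripts in every library but KO3, where it stood at 1072 TPM and *Igfbp5* at 1073. In WT1, WT2 and WT3 it reached 25039, 15308 and 21103 CPM, and in KO1, KO2 and KO3 it reached 7312, 3997 and 2209 CPM. No KO library came near the WT range. *H19* alone took 2.39%, 1.49% and 2.0% of all counts in the WT libraries and 0.718%, 0.43% and 0.235% in the KO libraries. By raw counts, which are not divided by transcript length, it ranked 2, 2 and 3 among all genes in WT1, WT2 and WT3. In KO1, KO2 and KO3 its rank was 7, 11 and 27. The log2 fold change was −2.18 ± 0.48 (SE; 95% interval −3.3 to −1.07), 4.55-fold lower, with an edgeR adjusted p of 0.0181. It was not called without WT1 (edgeR adjusted p = 0.0807) or without WT3 (0.0561). In TPM, *H19* fell from 8484 ± 1993 (SD, n = 3) to 1823 ± 879 (SD, n = 3), and limma's adjusted p was 0.0047.

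*H19* and *Igf2*, which 72622 bases separate, both fell, and their ratio did not move beyond its spread. *H19* exceeded *Igf2* 296-fold, 158-fold and 290-fold in TPM in WT1, WT2 and WT3, and 233-fold, 124-fold and 266-fold in KO1, KO2 and KO3. The ranges of these ratios overlapped. Which parental allele the transcripts came from was not measured. The antisense transcript *Igf2os*, which overlaps the 5′ side of *Igf2*, fell with it: it had 452, 727 and 521 counts in WT and 174, 94 and 44 in KO, with a log2 fold change of −2.61 ± 0.51 (SE) and an edgeR adjusted p of 0.0123. Whether reads were counted by strand is not stated, so reads of *Igf2* and *Igf2os* where they overlap cannot be told apart.

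The other genes of the interval were called about as often as genes at large. Of 15 genes listed here, 12 were tested, and 3 of these are *H19*, *Igf2* and *Igf2os*. Of the other 9, 1 rose and 1 fell, where 22.7% of all genes tested were called, with a median log2 fold change of −0.39. *Syt8*, a synaptotagmin gene, rose by 2.47 ± 0.52 (SE) on the log2 scale from 0.347, 0.366 and 0.431 CPM in WT to 3.41, 0.893 and 2.1 CPM in KO (edgeR adjusted p = 0.0159). *Lsp1*, which encodes an actin-binding protein, had a log2 fold change of −1.08 ± 0.20 (SE) with an edgeR adjusted p of 0.0105. The fast troponin genes *Tnni2* and *Tnnt3* were not called, with log2 fold changes of −0.99 ± 0.53 and −0.39 ± 0.51 (SE). *Mrpl23*, *Ctsd* and *Cd81* were at −0.64, −0.23 and −0.48, *Nctc1* at 0.98 and *Tspan32* at 0.00, and none of these was called. *Th* and *Ascl2* had 0 counts in all libraries and *Ins2* at most 2. The 90 tested genes within 5 Mb on either side of *Igf2* had a median log2 fold change of 0.03, with 15 called higher and 8 lower, where 22.7% of all genes tested were called. *Syt8* was not called when WT1, WT2 or WT3 was left out (edgeR adjusted p = 0.079, 0.0516 and 0.0621), and without KO1 6 of these 9 genes fell, in a fit that called 4712 of 15409 genes.

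**Figure D2:**
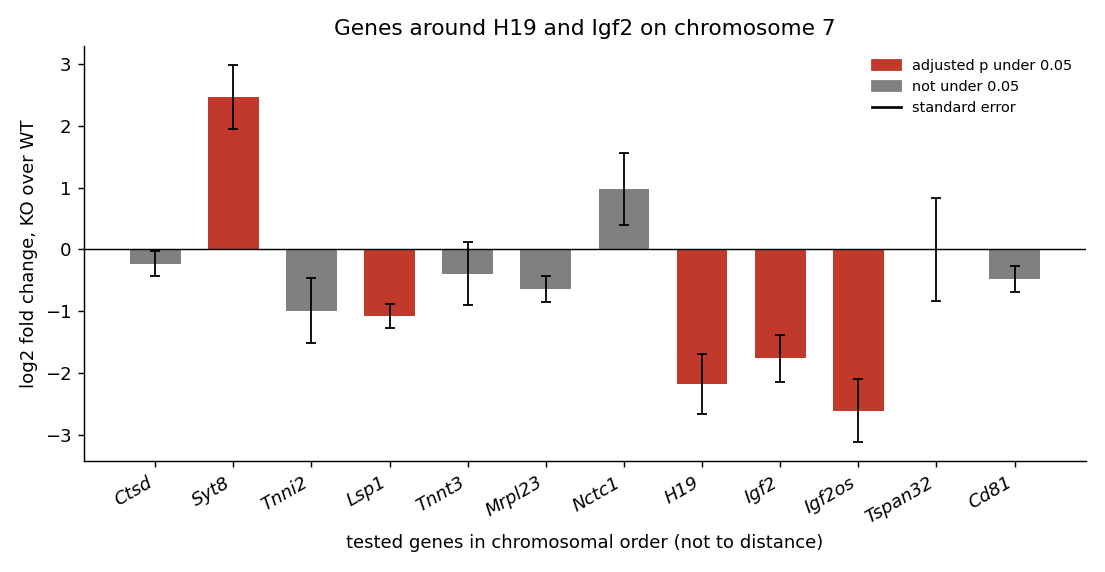
Log2 fold change of KO over WT from edgeR for the 12 tested genes around *H19* and *Igf2*, in chromosomal order and not to distance, with standard errors. Red bars passed an adjusted p of 0.05 and grey bars did not, and *H19*, *Igf2* and *Igf2os* are the 3 deepest bars below 0.

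Of the receptors, *Igf1r* (ENSMUSG00000005533, chr7:67952859-68226780, plus strand) stood at 28.9, 32.6 and 28.9 CPM in WT and at 20, 14 and 21.4 CPM in KO. The WT libraries were close together, and each KO library was below them. In the fit the log2 fold change was −0.71 ± 0.18 (SE; 95% interval −1.13 to −0.28), 1.63-fold lower, with an edgeR adjusted p of 0.0301. This was the smallest of the 5 called changes, and it was not called when WT1 (edgeR adjusted p = 0.0924), WT2 (0.0828) or WT3 (0.0793) was left out. In TPM the levels were 4.49 ± 0.504 (SD, n = 3) in WT and 2.77 ± 0.813 (SD, n = 3) in KO, without overlap, but limma's adjusted p was 0.0643.

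*Igf2r* (ENSMUSG00000023830, chr17:12682406-12769664, minus strand), the receptor that clears IGF2, did not differ beyond its spread. It was at 86.7, 251 and 200 CPM in KO1, KO2 and KO3 and at 128, 270 and 207 CPM in WT1, WT2 and WT3. The first library of each genotype was the lowest of its group, and the groups overlapped. Its log2 fold change of −0.17 ± 0.40 (SE) had a 95% interval from −1.09 to 0.75 and an edgeR adjusted p of 0.776, an interval that holds a fall as large as that of *Igf1r*. *Airn*, the imprinted RNA transcribed antisense to *Igf2r*, fell from 164, 158 and 189 counts in WT to 85, 123 and 113 in KO. Its log2 fold change was −0.88 ± 0.22 (SE), with an edgeR adjusted p of 0.0262. That call was lost without KO3 or any of the WT libraries (0.0562 to 0.0992). It was also lost in edgeR with a block on replicate number (0.0585) and with scaling by library totals alone (0.0509). Of these overlapping genes too, reads cannot be assigned to a strand with certainty. *Igf2r* exceeded *Igf1r* 2.34-fold, 4.41-fold and 3.84-fold in TPM in WT and 2.29-fold, 9.36-fold and 4.88-fold in KO, again with overlap.

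The 4 binding protein genes behaved differently from each other. *Igfbp5* (ENSMUSG00000026185, chr1:72857932-72874884, minus strand), a binding protein known to be made by differentiating myoblasts, was the most abundant in every library, at 5599, 8827 and 6072 CPM in WT and 8938, 5980 and 8357 CPM in KO. The groups overlapped fully. An edgeR adjusted p of 0.686 went with a log2 fold change of 0.18 ± 0.30 (SE; 95% interval −0.52 to 0.88). *Igfbp5* was the one gene of the 10 whose KO libraries were not more spread than its WT libraries, 1.49-fold against 1.58-fold from lowest to highest.

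*Igfbp2* (ENSMUSG00000039323, chr1:72824503-72852474, plus strand) ends 5457 bases from *Igfbp5* and showed another pattern. It was at 196, 246 and 161 CPM in WT1, WT2 and WT3 and at 148, 57 and 44 CPM in KO1, KO2 and KO3. All KO libraries were below WT, KO1 only just. The edgeR log2 fold change of −1.28 ± 0.43 (SE; 95% interval −2.27 to −0.29) missed the threshold at an adjusted p of 0.066. Without KO1 it was −2.0 with an adjusted p of 0.000654. In TPM it fell from 105 ± 27.5 (SD, n = 3) to 41.3 ± 25.2 (SD, n = 3), and there limma's adjusted p was 0.0258, so the call depended on the measure and the test. On the same counts DESeq2 called it, at −1.3 with an adjusted p of 0.00545, as did edgeR without a filter on low counts (1.45e-07). The TPM call was kept without KO1 (limma adjusted p = 0.000571) and lost when any of the other 5 libraries was left out (0.0518 to 0.101).

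*Igfbp3* (ENSMUSG00000020427, chr11:7206086-7213923, minus strand), the main carrier of IGFs in serum, was at 437, 653 and 538 CPM in WT. In KO1, KO2 and KO3 it was at 411, 2050 and 870 CPM. KO2 and KO3 were above every WT library and KO1 was below them all. A log2 fold change of 1.03 ± 0.51 (SE; 95% interval −0.15 to 2.21) was not called (edgeR adjusted p = 0.174). Without KO1 it was 1.42 and was called (0.016), while without KO2 it was 0.25 (0.628). Of 85 genes tested within 5 Mb on either side of *Igfbp3*, 26 were called lower and 2 higher, where 10.6% and 12.1% of all genes were. Their median log2 fold change was −0.36, and 35.3% of them were higher in the fit. For the other 9 genes the same median lay between −0.04 and 0.05.

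*Igfbp4* (ENSMUSG00000017493, chr11:99041244-99054392, plus strand), which restrains IGFs until the protease PAPP-A cleaves it, was scarce. It was at 1.76, 7.28 and 2.24 CPM in WT and 18.4, 2.43 and 2.64 CPM in KO, where KO1 alone stood out. The log2 fold change of 1.06 ± 0.87 (SE; 95% interval −0.96 to 3.07) was not called (edgeR adjusted p = 0.404), and without KO1 it had the other sign, at −0.57. It did not pass the TPM filter.

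Together the 4 binding proteins summed to 1096, 1224 and 1377 TPM in KO and 870, 1369 and 863 TPM in WT, which overlapped. *Igfbp5* made up 73.8% to 76.1% of this sum in WT. In the KO libraries its share was 83.5%, 52.8% and 78%, and the low value, that of KO2, went with an *Igfbp3* share of 44.9%. *Igfbp2* made up 11.9%, 9.75% and 9.1% of the sum in WT and 6.42%, 2.3% and 1.85% in KO, without overlap.

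*Igf2bp2* (ENSMUSG00000033581, chr16:22059009-22163299, minus strand) showed the largest fall of the 10 and the smallest adjusted p. It was at 45.3, 41.7 and 35.7 CPM in WT and at 9.4, 2.5 and 2.83 CPM in KO. Every KO library was far below the WT range, with KO1 the highest of the 3. The log2 fold change was −3.06 ± 0.50 (SE; 95% interval −4.21 to −1.92), 8.37-fold lower, with an edgeR adjusted p of 0.0065. In TPM it fell from 7.43 ± 1.0 (SD, n = 3) to 0.898 ± 0.80 (SD, n = 3), with a limma adjusted p of 0.00152. It was called in 11 of 11 alternative settings of the counts and 9 of 9 of the TPM values, with log2 fold changes of the counts from −3.95 to −2.75. None of the other 9 genes was called in every alternative of both measures. Its family members differed: *Igf2bp1* had at most 8 counts in any library and was not tested, and *Igf2bp3* had 38, 12 and 25 counts in KO against 0, 9 and 8 in WT (edgeR adjusted p = 0.138).

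The upstream sequences of *Igf2bp2* and of the most upstream *Igf2* start are shown because both genes fell and because, unlike some other *Igf2* starts, neither stretch overlaps an annotated exon. They are the 250 bases before each start on the minus strand, chr16:22163300-22163549 and chr7:142666817-142667066 (RefSeq, GRCm38.p6), and the capitals mark CG dinucleotides:
Igf2bp2 upstream: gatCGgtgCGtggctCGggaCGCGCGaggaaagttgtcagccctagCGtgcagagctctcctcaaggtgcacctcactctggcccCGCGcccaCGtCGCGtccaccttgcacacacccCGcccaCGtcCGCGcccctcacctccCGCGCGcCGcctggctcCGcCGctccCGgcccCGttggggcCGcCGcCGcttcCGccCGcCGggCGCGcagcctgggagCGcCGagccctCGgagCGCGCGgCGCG
Igf2 upstream: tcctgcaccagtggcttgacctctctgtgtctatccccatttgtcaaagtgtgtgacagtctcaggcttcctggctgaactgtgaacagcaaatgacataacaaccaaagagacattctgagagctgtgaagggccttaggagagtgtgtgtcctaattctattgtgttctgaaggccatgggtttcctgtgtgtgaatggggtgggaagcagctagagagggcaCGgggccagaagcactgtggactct
The *Igf2bp2* stretch holds 40 CG dinucleotides, a number reached by 1.31% of the 32851 promoters in the table, whose median is 6. The *Igf2* stretch shown holds 1, the fewest of the 4 *Igf2* promoters in the table, whose others hold 10, 22 and 6. Which of these *Igf2* starts the cells used was not measured. Of the 10 genes, 9 had an entry, with 13 promoters between them. The E-box letters CANNTG, the core bound by MYOD1 and related factors, were searched on both strands in the 250 upstream bases. They occurred in 8 of these 13 and in 66.2% of all promoters, and the form CAGCTG, itself a CANNTG, occurred in 1 of the 13, that of *Igf1*, and in 13.0% of all.

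**Figure D3:**
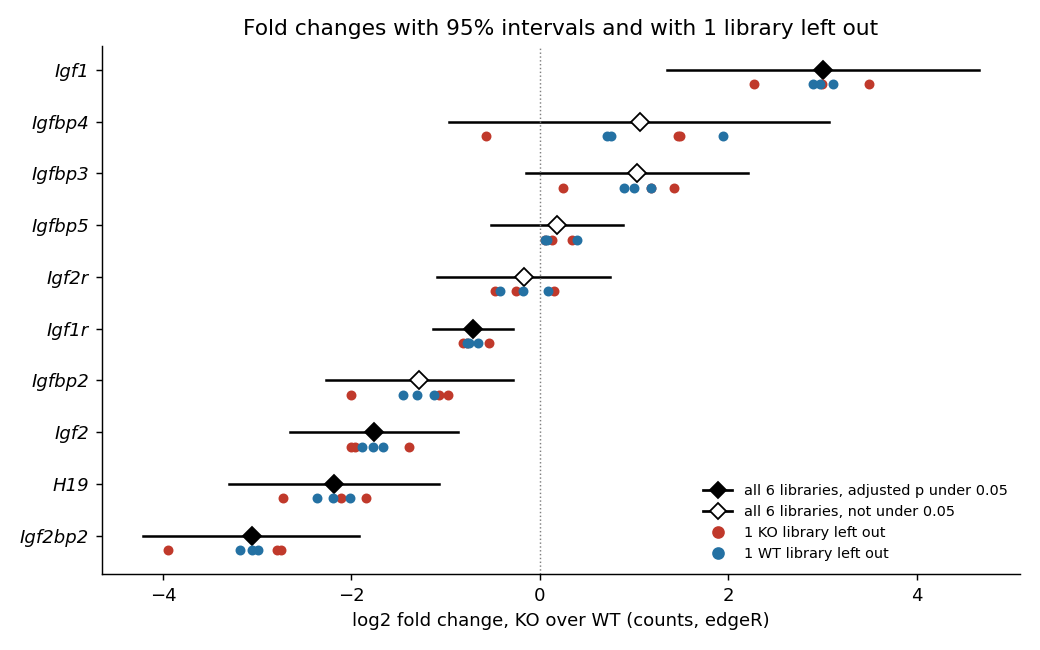
Log2 fold change of KO over WT from edgeR with its 95% interval (diamonds; filled where the adjusted p was under 0.05), and below each the estimates with 1 KO (red) or 1 WT (blue) library left out. The estimates of *Igf2bp2* stay at −2.75 or lower, while those of *Igf2r* and *Igfbp4* lie on both sides of 0.

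Ordered by WT level in TPM, the 10 genes ran *H19*, *Igfbp5*, *Igfbp3*, *Igfbp2*, *Igf2*, *Igf2r*, *Igf2bp2*, *Igf1r*, *Igfbp4* and *Igf1*, from 6652 to 10606 TPM for *H19* down to 0.941 to 1.4 for *Igf1*. Neighbours in this order did not overlap in the WT libraries, except *Igfbp3* with *Igfbp2* and *Igfbp4* with *Igf1*. In the KO libraries *Igf2bp2* was at 0.319 to 1.81 TPM and *Igf1* at 1.15 to 15.2. Of the 9 genes that passed the TPM filter, limma called 4, *Igf2*, *H19*, *Igfbp2* and *Igf2bp2*, all lower. Of the 11691 genes in that test 20.5% were called, 8.59% higher and 11.9% lower. In TPM 5 of the 9 had every KO library below WT, these 4 and *Igf1r*, where 40.6% of all genes had no overlap and 23% had KO below.

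The KO libraries differed from each other more than the WT libraries did for 9 of the 10 genes. From lowest to highest the KO libraries spanned 11.1-fold for *Igf1*, 7.6-fold for *Igfbp4* and 4.99-fold for *Igfbp3*, against 1.31-fold, 4.13-fold and 1.49-fold in WT. KO1 was the KO library nearest the WT mean for *Igf1*, *H19*, *Igfbp2*, *Igfbp3* and *Igf2bp2*. It was the farthest for *Igf2r*, *Igfbp4* and *Igfbp5*. KO1 was also the KO library with the highest summed CPM of muscle markers, 34187 against 15302 in KO2 and 20821 in KO3, and with the lowest of 6 cycling genes, 195 against 378 and 353. The part of these and of the fibroblast marker levels in the IGF values was not tested.

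**Figure D4:**
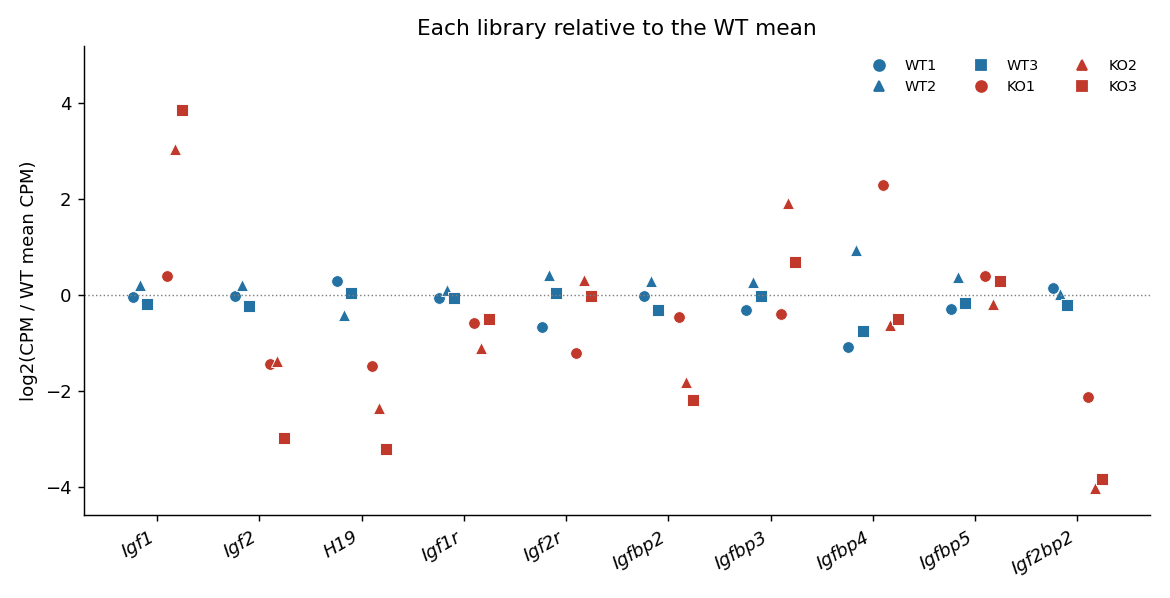
Log2 ratio of each library's CPM to the WT mean for the 10 genes, blue for WT and red for KO, with circles, triangles and squares for libraries 1, 2 and 3. The KO1 circle lies near 0 for *Igf1*, at 0.39, while KO2 and KO3 lie at 3.05 and 3.86.

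Other genes that act on IGF availability or receptor signalling were mostly lower or not called. Of 21 further genes of the IGF axis, 11 were tested, 0 rose and 6 fell, where 12.1% of all genes tested rose and 10.6% fell, and their median log2 fold change was −1.07. In edgeR 0 were higher at an unadjusted p under 0.05, and DESeq2 called 0 higher and 6 lower. The number higher was 2 without a filter on low counts and 1 without KO3, and the number lower was 5 without WT1. The 6 that fell include *Igf2os*, an antisense transcript whose reads cannot be told apart from those of *Igf2* where they overlap. They also include *Pappa* and *Pappa2*, which passed the filter on low counts only through the WT libraries. *Insr*, the insulin receptor, was at 113, 104 and 115 CPM in WT and 55.5, 34.8 and 48.6 CPM in KO. No library overlapped, and the log2 fold change was −1.26 ± 0.18 (SE) with an edgeR adjusted p of 0.00453. *Irs2*, an adaptor of both receptors, fell by 1.41 on the log2 scale (edgeR adjusted p = 0.00891), while the adaptor *Irs1* was at 0.31 ± 0.15 (SE) and was not called (0.164).

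The metalloprotease genes whose products free IGFs from their binding proteins both fell. *Pappa2*, which cleaves IGFBP3 and IGFBP5, had 65, 66 and 69 counts in WT and 0, 1 and 2 in KO (edgeR adjusted p = 0.00147). *Pappa*, which cleaves IGFBP4, had 48, 104 and 52 counts in WT and 3, 1 and 13 in KO. Its log2 fold change was −3.78 ± 0.77 (SE), with an edgeR adjusted p of 0.0137, and was −5.18 without KO3 and −3.25 without KO2. Both were scarce transcripts, at most 3.17 CPM in any library. They passed the filter on low counts only through the WT libraries, so they could hardly have been called higher in KO. The stanniocalcin gene *Stc2*, an inhibitor of these proteases, fell by 1.07 on the log2 scale (edgeR adjusted p = 0.0158, and 0.0528 without WT1). *Stc1* was at 1.19, 29 and 10.1 CPM in WT and 3.5, 44.1 and 92.4 CPM in KO and was not called. *Igfbp6* and *Igfbp7*, at log2 fold changes of 0.31 and −0.12, were not called either.

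**Figure D5:**
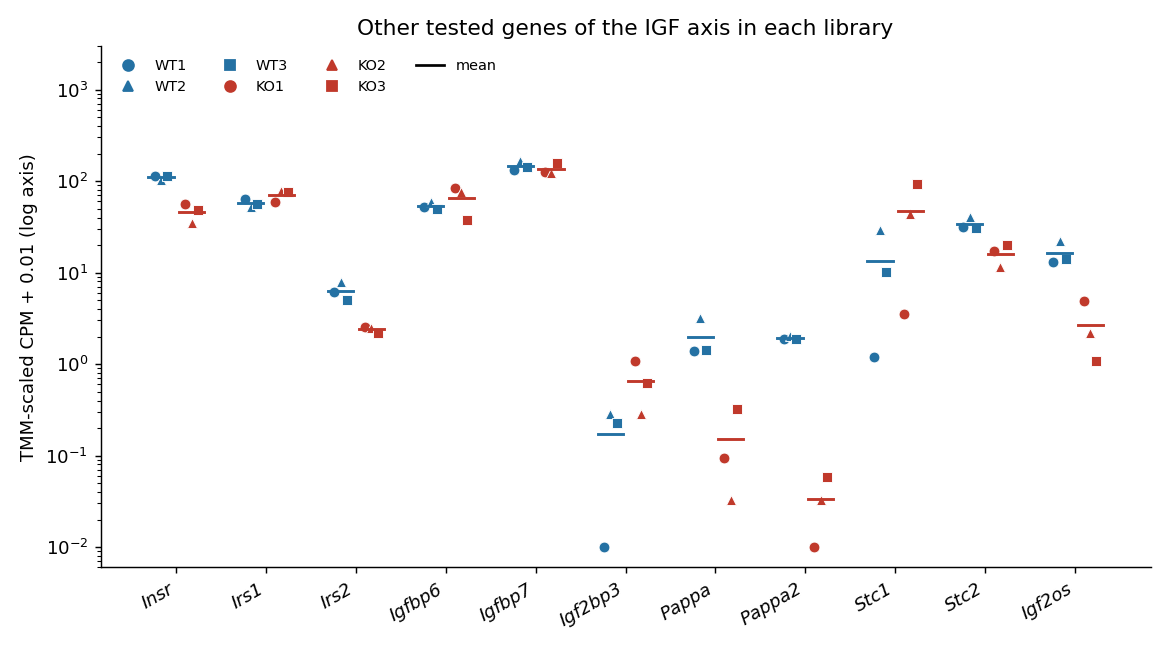
TMM-scaled CPM plus 0.01 (log axis) of the 11 tested further genes of the IGF axis in each library, blue for WT and red for KO, with a bar at each group's mean. *Insr*, *Irs2*, *Pappa*, *Pappa2*, *Stc2* and *Igf2os* have every KO library below every WT library.

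Downstream, 44 genes of PI3K-AKT-mTOR and MAPK signalling were all tested and had a median log2 fold change of −0.05. Of these, 1 rose, *Nras*, by 0.42 on the log2 scale, and 7 fell, where 12.1% of all genes tested rose and 10.6% fell. The adaptor *Grb10*, an inhibitor of IGF1 and insulin receptor signalling, was at 11.5, 5.58 and 11.8 CPM in WT and 1.62, 1.72 and 0.61 CPM in KO. This was the largest fall of the list, a log2 fold change of −2.87 ± 0.46 (SE) with an edgeR adjusted p of 0.00635. *Eif4ebp1*, a translational repressor inhibited by mTOR, fell by 0.91 on the log2 scale, *Foxo4* by 0.87 and *Map2k1* by 0.73. *Pdpk1* fell by 0.61. *Pik3cd*, at no more than 18 counts in any library, had a log2 fold change of −1.44 whose call was lost when any 1 of the 6 libraries was left out (edgeR adjusted p = 0.0638 to 0.138) and in DESeq2 (0.107). *Pik3cd* too passed the filter on low counts only through the WT libraries. *Akt1*, *Akt2* and *Mtor* were at 0.04, −0.38 and 0.10 and were not called. The number that fell was 2 without WT1 or without WT3, 3 without WT2 and 4 without KO2 or KO3, and the number that rose was 5 without KO1 and 0 without KO3 or any of the WT libraries. *Grb10* and *Eif4ebp1* were called in each of these, and *Nras* was not called without KO3, WT1, WT2 or WT3 (edgeR adjusted p = 0.0612 to 0.143) or in DESeq2 (0.0505).

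The genes whose levels tracked *Igf2* and *H19* most closely over the 6 libraries were other genes that are lower in KO. The comparison covered 5367 genes that averaged 5 or more in log2 CPM, leaving out those with predicted-gene or clone names. Among them Pearson's r of log2 CPM with *Igf2* was highest for *Clpp* (0.998), followed by *Ppp2r5b*, *Rps27a*, *Mrpl32* and *Eif3m* at 0.996. With *H19* it was highest for *Ctdnep1* (0.999), followed by *Rassf3*, *Gyg*, *Ecsit* and *Prosc* at 0.998. All 10 were lower in KO in the fit, by 0.34 (*Mrpl32*) to 1.94 (*Gyg*) log2 units, less than *Igf2* or *H19* respectively. The points share libraries and the split by genotype, so r is a description only.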

How the data were processed

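The 10 genes and all gene lists were chosen with earlier results of these data known. Per the paper's methods and the labels, paired-end total RNA reads (rRNA removed by kit and in silico) were trimmed with Trim Galore, aligned with STAR and counted per gene by the authors with featureCounts, and deposited as raw counts. StringTie gave the deposited TPM values, in which length and library total are divided out. Versions and strand setting are not given in the sources used here. The methods name GRCm39 and the submitters' processing notes mm9, but 83.2% of 45223 gene positions in the files equal those of GENCODE M21 on GRCm38, the build used here. Groups and replicate numbers come from the titles.

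Counts were tested with edgeR 4.0.16 (R 4.3.3; TMM, filterByExpr, quasi-likelihood, two-sided, Benjamini-Hochberg over 14828 genes). Total counts per library were 33605258 to 40558740. TPM values were tested with limma 3.58.1 on log2(TPM + 1), which understates changes of low genes, over 11691 genes (TPM of 1 or more in 3 libraries). DESeq2 1.42.0, other scalings, filters and pseudocounts, a replicate block and leaving out each library were alternatives. The fits across genes were tested on simulated data. The 10 genes are all named; further lists are counted whole with up to 6 called genes of largest change named, plus others chosen after their values were seen. No pair of libraries agreed within sampling noise. Promoter and miRNA sequences are from RefSeq (GRCm38.p6).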

Additional observations from a re-analysis of the deposited data

How the results depend on the processing

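Only 3 libraries a genotype limit every call: the fold changes of *Igf1*, *Igf2*, *H19* and *Igf1r* kept their sign in 11 of 11 alternatives of the counts and 9 of 9 of the TPM values, but each lost its call in the counts when at least 1 library was left out, as given above. The spread between libraries, 7.6-fold among KO and 4.13-fold among WT for *Igfbp4*, limits the others. With 1 library left out, edgeR called 933 to 4712 genes and 1 to 7 of the 10; the counts without WT1, WT3, KO3 and WT2 were 933, 1288, 2088 and 2100 genes with 1, 2, 4 and 3 of the 10, and without KO1 4712 and 7. For TPM, limma called 484 (without WT1) to 3156 genes (without KO1) and 2 to 6 of the 10, with 902, 1329, 1422 and 1593 genes without WT3, WT2, KO3 and KO2. Without a filter on low counts edgeR called 8 of the 10, and without a filter on TPM limma called 1075 genes and 1 of the 10, *Igf2bp2*. DESeq2 called 4149 genes and 6 of the 10. Scaling by library totals alone moved the median log2 fold change of all genes from 0.034 to 0.15 and the share of calls that were higher in KO from 53.4% to 66.2%, with the same number of the 10 called. *Igf2r* changed sign in the counts without KO1 (0.15) and without WT2 (0.09; range −0.48 to 0.15), and in TPM (0.23 and 0.02; range −0.5 to 0.23), and *Igfbp4* without KO1 (range −0.57 to 1.95). The cause was not tested. Deviations of same-numbered libraries from their group means correlated at r = 0.163, −0.122 and −0.05, and those of differently numbered libraries at −0.377 to 0.326. These values do not decide whether the numbers pair the libraries. With the replicate block edgeR called 2520 genes and 4 of the 10. It lost *Igf1* (adjusted p = 0.054) and *Igf1r* (0.0587) and gained *Igfbp2* (0.0365). With that block limma called 2103 genes and 5 of the 10, gaining *Igf1* (0.0135).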

Other observations

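*H19*, *Igf2* and *Igf2r* belong to the imprinted genes, which are expressed mainly from 1 parental allele, and other members of that class changed in both directions. Leaving these 3 out, 25 were listed and 15 tested, of which 4 rose and 4 fell, where 12.1% of all genes tested rose and 10.6% fell. Their median log2 fold change was −0.05. *Peg10*, a gene derived from a retrotransposon, had 39, 50 and 96 counts in WT and 1563, 1664 and 3250 in KO, a log2 fold change of 4.94 ± 0.41 (SE) with an edgeR adjusted p of 0.000743. *Mest*, which encodes a hydrolase-like protein, rose by 1.90 ± 0.42 (SE) on the log2 scale (edgeR adjusted p = 0.0181), and *Cdkn1c*, the cell-cycle inhibitor p57, by 1.78 ± 0.50 (0.0397), at 42.4, 217 and 116 CPM in KO against a WT maximum of 41.3. *Plagl1*, a zinc finger gene known to regulate other imprinted genes, and *Ddc*, the decarboxylase of dopamine synthesis, had log2 fold changes of −2.18 ± 0.46 and −1.78 ± 0.25 (SE) with edgeR adjusted p of 0.0156 and 0.00462. The *Dlk1* and *Meg3* cluster was at or near 0 in every library. Of these genes 2 rose and 2 fell without WT1, and 3 rose and 2 fell without WT3. *Cdkn1c* was called only with all 6 libraries or without KO1 (otherwise edgeR adjusted p = 0.0817 to 0.148), *Mest* was not called without WT1 (0.0701), and *Plagl1* was not called without WT1 (0.051) or WT3 (0.0588).

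*Grb10* (chr11:11930508-12038683) and *Ddc* (chr11:11814101-11898144), both lower in KO, lie within the 5 Mb around *Igfbp3* in which 26 of 85 tested genes were called lower, against 10.6% of all genes. *Igfbp3* itself was not among them.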
